A study of Homo sapiens with 4 samples.

Results

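A group of 9 genes of MHC class I antigen presentation were followed in HEK293 cells, an established human line derived from embryonic kidney, in libraries of a HEMK1 knockout (KO) clone and of wild-type (WT) cells. The 9 members were chosen by name (B2M, HLA-B, HLA-C, HLA-E, TAP1, TAP2, TAPBP, ERAP1 and NLRC5), and all 9 were found by Ensembl identifier among the 78686 features of the count tables. The KO samples were 2 libraries of HEMK1 KO cells of the clone named 1F8, and they were set against 2 libraries of HEK293 cells with WT genotype, all grown in high-glucose medium with serum. The protocols in the labels describe how the KO arose: cells were transfected with a pair of pooled Cas9 plasmids, each with its own guide RNA against HEMK1, and single sorted cells were expanded. The KO libraries are therefore 1 clone, and loss of HEMK1 cannot be told apart from other differences of that clone. HEMK1 encodes a methyltransferase of mitochondrial release factors. Its mRNA had 1 and 7 counts in the KO libraries and 6 and 9 counts in the WT libraries, too few to check the labels.

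A class I molecule is a transmembrane heavy chain paired with the light chain β2-microglobulin and a short peptide, and it shows fragments of the cell's proteins to CD8 T cells and natural killer cells. Peptides made by the proteasome enter the endoplasmic reticulum through the TAP transporter, are trimmed by aminopeptidases such as ERAP1 and are fitted to the heavy chain in the peptide-loading complex, in which tapasin joins TAP to the heavy chain. NLRC5, with the RFX factors, CREB/ATF1 and NF-Y, drives transcription of the heavy chains and B2M from a shared set of promoter elements, and interferons raise the whole group.

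The upstream sequences of the light chain and the 2 classical heavy chains are shown because they carry these shared elements. RefSeq promoter windows (GRCh38.p14) were matched by symbol for 7 of the 9 members. HLA-E and NLRC5 were not matched. The 250 bases before each annotated start are printed 5′ to 3′ on the gene's strand. Capitals mark matches, on either strand, to 4 short motifs: GAAA, any 2 bases and GAAA (the interferon-stimulated response element, ISRE), GGGA, any 4 bases and CC (an NF-κB-type site), TGACG (the core of the cAMP-response element bound by CREB/ATF1) and CCAAT (the box bound by NF-Y).
B2M (chr15:44711267-44711516, plus strand): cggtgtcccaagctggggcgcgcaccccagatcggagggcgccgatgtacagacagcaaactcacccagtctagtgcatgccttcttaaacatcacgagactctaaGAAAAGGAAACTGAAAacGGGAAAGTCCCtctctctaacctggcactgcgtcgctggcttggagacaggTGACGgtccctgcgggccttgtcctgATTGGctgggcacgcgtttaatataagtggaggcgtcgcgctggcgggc
HLA-B (chr6:31357180-31357429, minus strand): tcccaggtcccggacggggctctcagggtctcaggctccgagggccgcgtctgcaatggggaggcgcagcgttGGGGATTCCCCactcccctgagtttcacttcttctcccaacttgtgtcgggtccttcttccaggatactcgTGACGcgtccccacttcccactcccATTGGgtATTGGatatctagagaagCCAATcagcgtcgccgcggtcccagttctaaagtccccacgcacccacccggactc
HLA-C (chr6:31272093-31272342, minus strand): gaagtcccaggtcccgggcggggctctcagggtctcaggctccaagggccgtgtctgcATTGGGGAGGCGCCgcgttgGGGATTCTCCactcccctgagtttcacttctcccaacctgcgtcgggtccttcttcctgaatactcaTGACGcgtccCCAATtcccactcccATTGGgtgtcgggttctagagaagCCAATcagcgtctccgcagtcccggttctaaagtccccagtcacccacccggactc

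All 3 windows held TGACG upstream of a CCAAT box, the order of the X and Y boxes of class I promoters. TGACG began 75 bases before the start in B2M, 106 in HLA-B and 105 in HLA-C. The HLA-B and HLA-C windows were identical at 89.0% of aligned columns, against 49.5% for HLA-B and B2M. The B2M window held 2 ISRE matches, which overlap each other, and an NF-κB-type match on each strand, offset by 1 base. HLA-B also had an NF-κB-type match on each strand, offset by 1 base, and HLA-C had 2 such matches on the gene's strand. The exact ISRE letters searched for were not found in the HLA-B and HLA-C windows. An ISRE that departs from these letters would be missed, so its absence from these promoters was not shown. Of the other matched members, TAP1 had 2 ISRE and 2 NF-κB-type matches in the upstream one of its windows. TAPBP had 2 ISRE matches and 1 NF-κB-type match, TAP2 1 ISRE match and ERAP1 1 NF-κB-type match. Of 35116 RefSeq windows of the same length, 3.02% held the ISRE letters, 22.6% the NF-κB-type letters, 21.2% TGACG and 32.0% CCAAT, so that single matches to the last 3 are common. A match describes letters and was not tested as a binding site.

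Total gene counts were 2856784 and 3202039 in the KO libraries and 2476471 and 2671594 in the WT libraries. Of 10670 genes tested with edgeR, 35 were called at an adjusted p under 0.05, which is 0.328% of them (0.0469% higher and 0.281% lower in KO). As a look at the labelled line, of 9 epithelial, kidney and neurofilament markers KRT8, KRT18 and NEFL passed the count filter. PAX2 was at 0 in every library and PAX8 and EPCAM had at most 2 counts in any. KRT8 and KRT18 had log2 fold changes of −0.59 and −0.83 (edgeR adjusted p = 0.499 and 0.432). Of 7 fibroblast markers LUM, COL3A1 and PDGFRA also passed the filter, and of 4 endothelial markers 0 did. These lists therefore do not settle the identity of the line. The 15 immune and blood markers summed to 12 and 43 counts in the KO libraries and to 4 and 3 in the WT libraries, with PTPRC, CD3E and CD14 at no more than 1 count anywhere. Some of these markers had counts in KO libraries and 0 in both WT libraries: HBB had 4 and 11 counts in KO libraries, HBA2 had 4 and 2, and LYZ had 0 and 13. CD74, with 0 and 10 counts in KO and 0 and 1 in WT libraries, is in this list and in the class II list. Nothing in the labels says whether the replicates came from separate cultures, other than that they are called biological, so the p-values rest on library-to-library spread alone.

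Of the 9 class I genes, B2M and ERAP1 were well measured in both genotypes, the 3 heavy chains and TAP1 were near the limit of detection, and NLRC5, TAP2 and TAPBP had at most 4 counts in any library. Of the 5 that passed the count filter 0 were called, against 0.328% of all genes tested (0.0469% called higher and 0.281% called lower), and all 5 had a log2 fold change above 0, as did 51.2% of all genes tested. At an unadjusted p under 0.05, 1 of the 5 passed (B2M), against 8.43% of all genes tested. DESeq2 also called 0 members, with 0 at an unadjusted p under 0.05. The median log2 fold change of the 5 was 0.30, against 0.01 over all genes tested. The filter keeps genes with enough counts in 2 libraries, so this median describes only the members that were high enough to test.

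**Figure D1:**
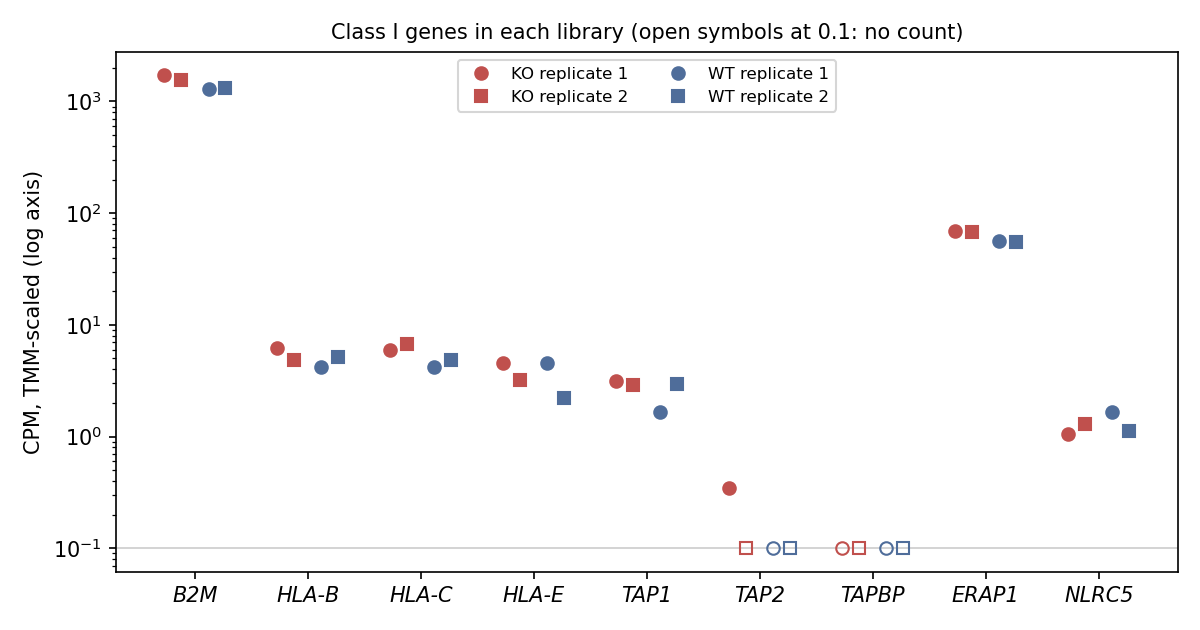
Level of each class I gene in the 4 libraries, in CPM with TMM-scaled library sizes on a log axis, KO libraries in red left of WT libraries in blue; open symbols at 0.1 stand for no count. B2M lies between 1300 and 1719 CPM and ERAP1 between 54.6 and 69.2 CPM, with both KO libraries above both WT libraries, while the heavy chains, TAP1 and NLRC5 lie below 7 CPM and TAPBP has no count.

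B2M, the light chain shared by all class I molecules (ENSG00000166710.23, GRCh38 chromosome 15, positions 44711487 to 44718877 in GENCODE 29), had 1719 and 1545 CPM in the KO libraries and 1300 and 1317 CPM in the WT libraries. Both KO libraries were above both WT libraries, and the KO libraries lay further apart from each other than the WT libraries did. The means were 1632 ± 123 CPM in KO and 1308 ± 11.8 CPM in WT libraries (SD, n = 2 each), a log2 fold change of 0.32 ± 0.14 (SE) with an edgeR adjusted p of 0.581. In the authors' deposited table the log2 fold change of B2M was 0.32 with a standard error of 0.17 and an adjusted p of 1.00. Both KO libraries were above both WT libraries for 3 of the 5 tested members (B2M, HLA-C and ERAP1) and below them for none. Over all genes tested these shares were 21.2% above and 18% below.

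The classical heavy chain HLA-B (ENSG00000234745.14, chromosome 6, positions 31269491 to 31357188) had 18 and 15 counts in KO and 10 and 14 counts in WT libraries. In CPM these were 6.26 and 4.83 in KO and 4.15 and 5.20 in WT libraries, so the groups overlapped. Its log2 fold change was 0.23 ± 0.44 (SE; edgeR adjusted p = 0.937).

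HLA-C, the other classical chain followed here (ENSG00000204525.18, chromosome 6, positions 31268749 to 31272130), had 17 and 21 counts in KO and 10 and 13 counts in WT libraries. Its 5.92 and 6.76 CPM in KO libraries were above the 4.15 and 4.83 CPM of WT libraries without overlap. The log2 fold change was 0.49 ± 0.42 (SE; edgeR adjusted p = 0.825), and the ratio of KO to WT by library totals was 1.40 (95% exact interval 0.815 to 2.47). Intervals of this kind reflect the counting of reads alone, and without molecular identifiers reads are not independent molecules.

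HLA-E (ENSG00000204592.9, chromosome 6, positions 30489467 to 30494205) is a non-classical chain that presents leader peptides of other class I chains to natural killer cells. It had 13 and 10 counts in KO and 11 and 6 counts in WT libraries. In CPM these were 4.52 and 3.22 in KO and 4.57 and 2.23 in WT libraries. Replicate 1 was the high library of each group and the groups overlapped (log2 fold change 0.20 ± 0.55, SE; edgeR adjusted p = 0.963). Without KO replicate 1 the sign turned, to −0.09, and without WT replicate 2 it was −0.27.

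The light chain and the heavy chains were compared within each library, where scaling between libraries plays no part. Differences between libraries that follow GC content, given below, need not cancel in this ratio. B2M and the heavy chains differ in GC content, and its part in the ratio was not tested. The summed counts of HLA-B, HLA-C and HLA-E were 48 and 46 in KO and 31 and 33 in WT libraries, against 4939 and 4797 B2M counts in KO and 3130 and 3543 in WT libraries. B2M thus had 103 and 104 counts per heavy chain count in KO libraries and 101 and 107 in WT libraries. The 4 ratios lay closer to each other than the counting interval of any of them, the narrowest of which ran from 77.5 to 140.

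The mean log2 ratio of B2M to the heavy chains was 6.69 in KO and 6.70 in WT libraries, a difference of −0.00736 (exact two-sided permutation p = 1.00; 2 against 2 libraries cannot go below 0.333). Over the summed counts the ratio in KO was 0.993 times that in WT libraries, with a 95% conditional interval of 0.710 to 1.38. A change of the balance by less than about that range was not detectable at this depth. By library totals the heavy chain sum was 1.25 times as high in KO as in WT libraries (95% exact interval 0.899 to 1.74) and B2M 1.24 times (1.20 to 1.28, counting error only). With HLA-C alone as the heavy chain the difference of log2 ratios was −0.18, with HLA-B alone 0.07 and with HLA-E alone 0.06, none of them beyond the spread between libraries (exact permutation p of 0.667 to 1.00).

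**Figure D2:**
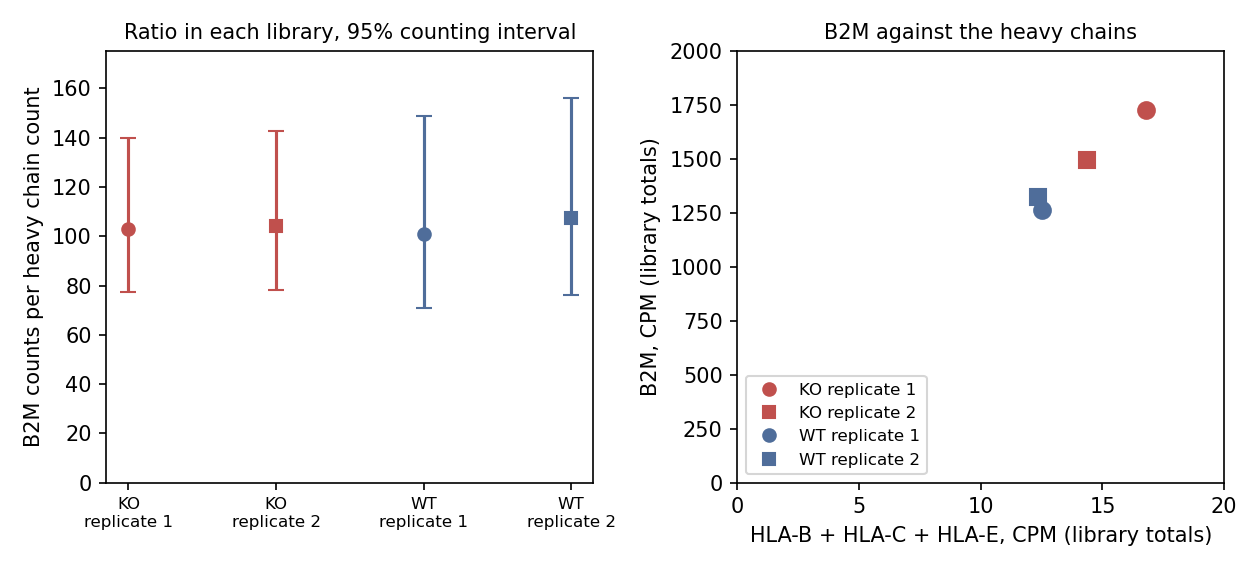
Left, B2M counts per count of HLA-B, HLA-C and HLA-E together in each library, with 95% exact counting intervals; right, B2M against the summed heavy chains in CPM by library totals, KO in red and WT in blue. The ratios are 103 and 104 in KO and 101 and 107 in WT libraries, and on the right both KO libraries lie above and to the right of both WT libraries.

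CPM per kilobase of annotated exon allow for exon length alone, and across coding genes they moved with base composition, as given below. B2M stood at 686 CPM per kb in KO and 550 in WT libraries. ERAP1 followed at 9.25 and 7.49 CPM per kb in KO and WT libraries. HLA-C had 4.08 in KO and 2.89 in WT libraries and HLA-B 3.50 in KO and 2.95 in WT libraries, and the order of this pair was not the same in every library. HLA-E came next with 1.49 in KO and 1.31 in WT libraries. TAP1 followed with 1.02 and 0.783 CPM per kb in KO and WT libraries, and in WT libraries the range of HLA-E overlapped that of TAP1. NLRC5 was at 0.171 in KO and 0.203 in WT libraries. Within the libraries, B2M per kilobase was 76.1 and 75.2 times the sum of the 3 heavy chains in KO and 77.6 and 76.4 times in WT libraries.

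Peptide transport and loading rested on very few reads. TAP1, one subunit of the peptide transporter (ENSG00000168394.13, chromosome 6, positions 32845209 to 32853978), had 9 and 9 counts in KO and 4 and 8 in WT libraries, a ratio by library totals of 1.27 with a 95% exact interval of 0.581 to 2.90. TAP2, its partner (chromosome 6, positions 32821833 to 32838780), had 1 count, in KO replicate 1, and 0 in the other 3 libraries. TAPBP, which encodes tapasin (chromosome 6, positions 33299694 to 33314387), had no count in any library. By counting error alone, a count of 0 among 11206888 allows a level of up to 0.268 CPM (a floor of 3 counts). DDX39B and CSNK2B, which most cells use and which lie in the same region of chromosome 6, were also listed at 0 in every library, so a 0 there need not bound expression. NLRC5 (ENSG00000140853.17, chromosome 16, positions 56989485 to 57083531) had 3 and 4 counts in KO and 4 and 3 in WT libraries, or 0.850 times as many by library totals (95% exact interval 0.254 to 2.84). These 4 members did not pass the count filter. For TAP1 and NLRC5 a difference between genotypes was not detectable at this depth, and for TAP2 and TAPBP no comparison was made.

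ERAP1, the aminopeptidase that trims peptides to the length that fits the class I groove (ENSG00000164307.13, chromosome 5, positions 96760810 to 96808100), had 69.2 and 68.0 CPM in KO and 56.5 and 54.6 CPM in WT libraries. The groups did not overlap, and the libraries of each group lay close together. Its log2 fold change was 0.30 ± 0.17 (SE; edgeR adjusted p = 0.679). ERAP2, a related aminopeptidase that is not among the 9, was at a higher CPM per kb than ERAP1 and had 343 and 328 CPM in KO and 253 and 213 CPM in WT libraries (log2 fold change 0.53 ± 0.14, SE; edgeR adjusted p = 0.242).

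The members differ in base composition, and detection followed base composition across all coding genes. The longest coding transcript in GENCODE 29 had a GC content of 39.4% for B2M and 39.7% for ERAP1. That of the others was 49.1% for TAP2, 54.8% for HLA-E, 57.52% for TAP1, 57.6% for TAPBP, 58.0% for NLRC5, 59.0% for HLA-B and 60.04% for HLA-C. Of 2746 coding genes under 40% GC, 69.0% passed the count filter, against 25.1% of 3164 genes from 55% to 60% and 6.70% of 3133 genes of 60% or more. The median level was 3.57 CPM per kb under 40% GC, 0.160 from 55% to 60% and 0.0353 at 60% or more. The shares of genes with no count in any library were 16.8%, 30.8% and 43.3% in the same classes.

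Against coding genes within 2 percentage points of their own GC content, genes with no count included, the heavy chains were above the median. HLA-C averaged 3.48 CPM per kb over the 4 libraries, where the median of its 2364 neighbours in GC was 0.0833, and HLA-B 3.22 against 0.111. HLA-C and HLA-B were also above the upper quartiles of their neighbours (0.524 and 0.728). HLA-E had 1.40 against 0.270 and TAP1 0.901 against 0.167, both below the upper quartiles of their neighbours (1.80 and 1.06). NLRC5, at 0.187, was near its median of 0.141. TAPBP was 1 of 795 genes with no count among 2542 (31.3%), and TAP2, at 0.0141, was below a median of 0.732. B2M, at 618, and ERAP1, at 8.37, stood above medians of 3.31 and 3.24. Genes of different biology fill these GC classes, and what part GC content has in the distance between B2M and the heavy chains was not tested.

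**Figure D3:**
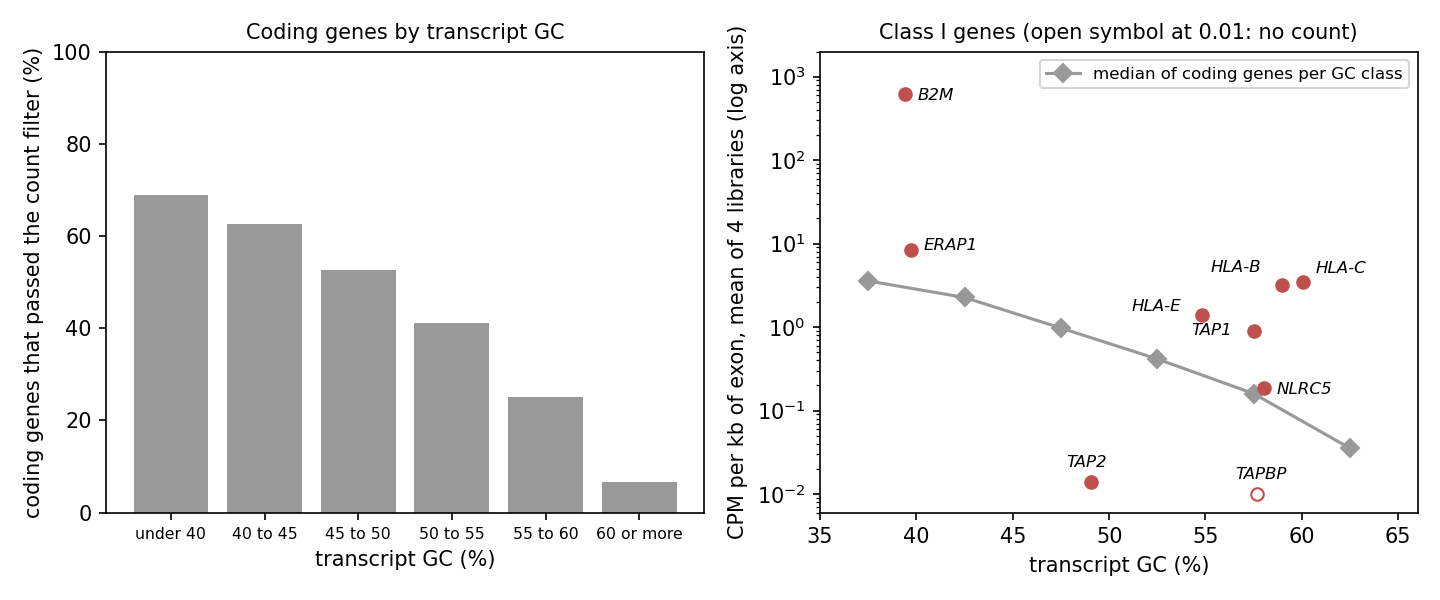
Left, share of coding genes that passed the count filter by GC content of the longest coding transcript; right, mean CPM per kb of exon of the 9 members on a log axis (red, open at 0.01 for no count) with the median of coding genes in each GC class (grey, drawn at the middle of each class, with the open end classes drawn as wide as the others). The share is 69.0% under 40% GC and 6.70% at 60% or more, and B2M and ERAP1 are the 2 members under 40%.

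The comparison of KO with WT libraries also moved with GC content. The median log2 fold change of tested coding genes was 0.05 under 40% GC, −0.13 from 55% to 60% and −0.28 at 60% or more. Relative to tested coding genes within 2 points of their GC content, B2M stood at 0.27 and ERAP1 at 0.25. HLA-B stood at 0.40, HLA-C at 0.68 and HLA-E at 0.27. These are differences of log2 fold changes, with no test of their own. The medians subtracted were below 0 for HLA-B (−0.17), HLA-C (−0.19) and HLA-E (−0.07), so their values could only rise. For B2M and for ERAP1 the median subtracted was 0.05. The part of base composition in the members' fold changes was not tested. The KO libraries also differed from each other by GC class. Their median log2 ratio of KO replicate 1 to KO replicate 2 was 0.06 under 40% GC and −0.18 from 55% to 60%. At 60% or more it was −0.13. Between the WT libraries it was −0.05, 0.01 and 0.02 in the same classes.

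Reads of several members can be lost or split where genes overlap or resemble each other. In GENCODE 29, 18.9% of the exon bases of HLA-B overlapped exons of other genes, among them HLA-C on the same strand, and 32.3% of those of TAP2 overlapped exons of 1 other gene on the same strand. The value was 9.49% for TAP1, 6.94% for ERAP1 and 1.40% for HLA-C, and 0 for B2M, HLA-E, TAPBP and NLRC5. Of the 50-base stretches of the longest coding transcript, 35.8% in TAP2, 6.71% in HLA-C, 6.09% in TAPBP, 5.13% in HLA-E, 2.54% in HLA-B and 1.07% in TAP1 also occurred in transcripts of other genes, against 0 in B2M, ERAP1 and NLRC5. Heavy chain genes are also the most variable of the human genome, and reads of alleles unlike the reference may map less well. The levels of HLA-B, HLA-C, HLA-E, TAP1, TAP2 and TAPBP are therefore uncertain, and how the authors' counting treated such reads is not given in the sources used here.

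Other genes of the pathway were taken from 9 lists with 91 genes, of which 64 were tested. With edgeR 0 of the 64 were called, against 0.328% of all genes tested, a share at which 0 calls among 64 genes says nothing particular of them. At an unadjusted p under 0.05 edgeR had 4 of the 64, against 8.43% of all genes tested, and DESeq2 called 0 with 4 at an unadjusted p under 0.05. In the list of peptide loading and folding in the endoplasmic reticulum, 8 of 9 passed the count filter and their median log2 fold change was 0.05. Chaperones that fold the heavy chain did not pass the test: calnexin (CANX) had 449 and 464 CPM in KO and 447 and 451 CPM in WT libraries (0.02 ± 0.13, SE), and calreticulin (CALR) 168 and 169 CPM in KO and 174 and 192 CPM in WT libraries (−0.12 ± 0.14). PDIA3, the disulfide isomerase of the peptide-loading complex, was at 0.01 ± 0.19. Their edgeR adjusted p lay between 0.879 and 0.998.

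In the list of class I degradation and export all 11 were tested, with a median of −0.03. BCAP31, which helps class I leave the endoplasmic reticulum, had 220 and 529 CPM in KO and 449 and 569 CPM in WT libraries, with KO replicate 1 the low library. SEC23A, a coat protein of export vesicles, was at −0.03 ± 0.16.

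Immunoproteasome subunits were scarcely detected, while the constitutive ones were abundant. PSMB8 had 4 and 10 counts in KO and 3 and 1 counts in WT libraries (ratio 2.97, 95% exact interval 0.934 to 12.4), PSMB9 2 and 0 counts in KO and 0 and 3 in WT libraries, and PSMB10 had no count. Of the constitutive counterparts, PSMB5 had 455 and 608 CPM in KO and 590 and 606 CPM in WT libraries. PSMB7 had 571 and 557 CPM in KO and 588 and 467 CPM in WT libraries. Transcript GC content was 55.3% for PSMB8, 53.9% for PSMB9 and 60.1% for PSMB10, against 51.9% for PSMB5 and 49.9% for PSMB7. PSMB8 and PSMB9 are also on chromosome 6, like TAP1 and TAP2. What part GC content or position has in the low counts was not tested. POMP, the proteasome assembly factor, was at 0.14 ± 0.14 and PSME2, an activator subunit that interferon induces, at 0.05 ± 0.13 (log2 fold change ± SE; edgeR adjusted p = 0.857 and 0.955). The median was 0.15 over 4 tested genes of the immunoproteasome list and −0.07 over the 3 constitutive subunits. Of cytosolic peptidases 7 of 8 were tested, with a median of −0.05, and LAP3, a leucine aminopeptidase, was at 0.27 ± 0.15 and NPEPPS, an aminopeptidase that trims or destroys peptides, at −0.13 ± 0.15.

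The transcription factors of class I and class II promoters had a median of −0.22 over 7 tested of 9. RFX5, the DNA-binding subunit of the RFX complex, had 45.2 and 94.0 CPM in KO and 79.3 and 103 CPM in WT libraries. KO replicate 1 was again the low library, and the groups overlapped. The NF-Y subunit NFYC was at −0.87 ± 0.40 (SE; edgeR adjusted p = 0.594) and NFYB at −0.11 ± 0.18. Interferon and NF-κB signalling genes had a median of −0.15 over 11 tested of 18. STAT2, which carries type I interferon signals, had 167 and 156 CPM in KO and 156 and 155 CPM in WT libraries. IRF1, an interferon-induced activator of class I promoters, had 8 and 12 counts in KO and 4 and 12 counts in WT libraries. RELA, an NF-κB subunit, was at −0.91 ± 0.43 (edgeR adjusted p = 0.595) and the kinase JAK1 at 0.15 ± 0.18.

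Other class I and class I-like chains had a median of −0.10 over 8 tested of 16. MR1, which presents vitamin B metabolites and also pairs with β2-microglobulin, had 63.7 and 73.1 CPM in KO and 68.1 and 64.3 CPM in WT libraries (0.05 ± 0.18, SE; edgeR adjusted p = 0.975). At 45.03% its transcript GC content is below that of the heavy chains. MICA, a stress-induced ligand of the receptor NKG2D, was at −0.06 ± 0.31.

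Class II genes, which normally mark antigen-presenting cells, were detected in part: 6 of the 10 listed had a count in every library and 1, HLA-DOA, in none. HLA-DOA is on chromosome 6, as are DDX39B and CSNK2B, and its 0 need not bound expression. Of the 10, 5 were tested and 0 were called, against 0.328% of all genes tested. All 5 had a log2 fold change above 0, as did 51.2% of all genes tested, and their median was 0.47. Both KO libraries were above both WT libraries for 3 of the 5, against 21.2% of all genes tested. HLA-DRB1, a class II β chain, had 28.9 and 38.0 CPM in KO and 17.9 and 19.0 CPM in WT libraries without overlap (0.86 ± 0.24, SE; edgeR adjusted p = 0.286). HLA-DMA, a chain of the class II peptide editor, had 27.5 and 26.1 CPM in KO and 18.3 and 21.2 CPM in WT libraries (0.44 ± 0.24; edgeR adjusted p = 0.659). HLA-DRB1 has near-identical paralogs whose reads may be shared. It had 83 and 118 counts in KO and 43 and 51 in WT libraries. HLA-DRA, also in the list, had 3 and 5 counts in KO and 0 and 1 in WT libraries. CIITA, the class II transactivator, had 6 and 9 counts in KO and 4 and 4 in WT libraries. Immune and blood markers summed to 12 and 43 counts in KO and to 4 and 3 in WT libraries, with the most in KO replicate 2. What part such RNA has in the class II values was not tested.

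**Figure D4:**
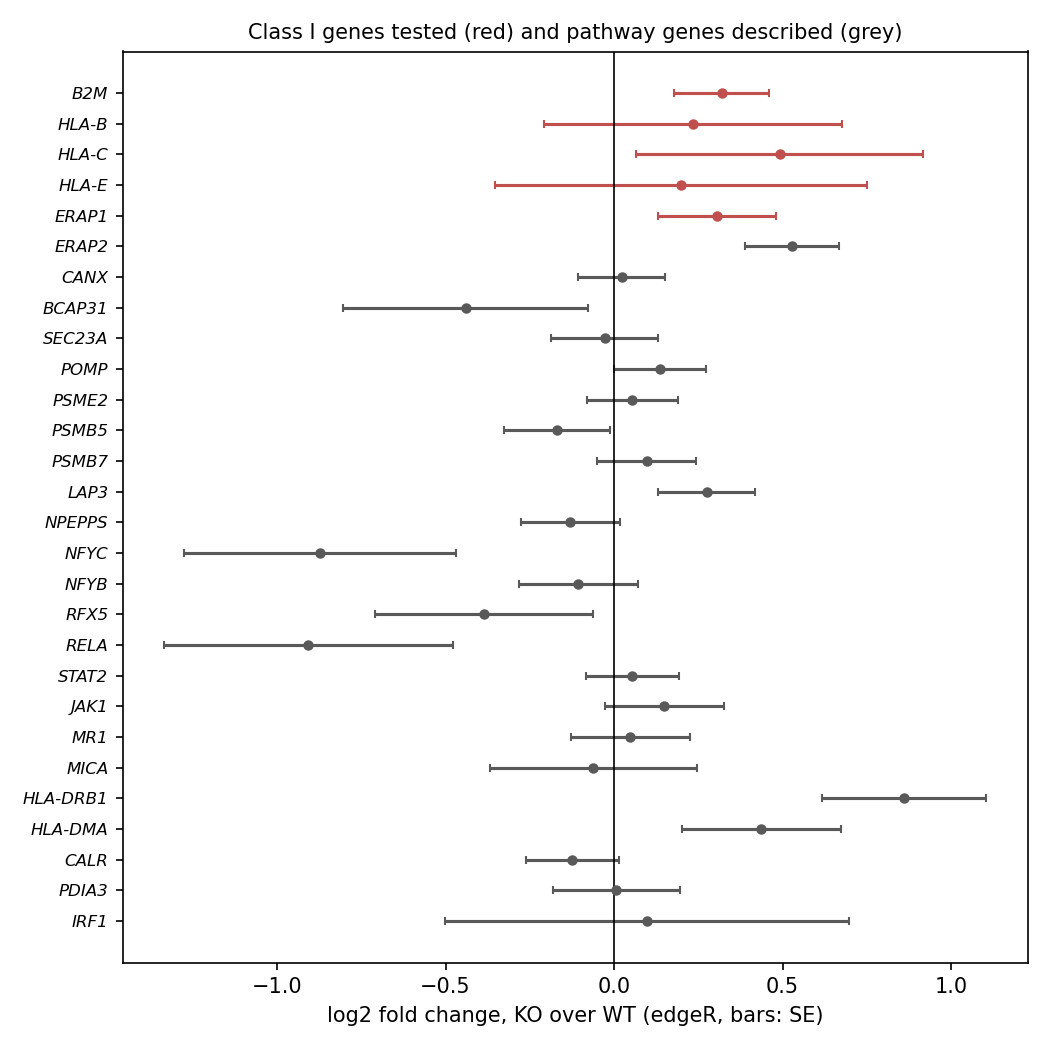
Fold changes (log2, KO over WT; bars are standard errors) for the 5 tested class I genes (red) and tested pathway genes described here (grey). The 5 red points lie between 0.20 and 0.49, and no gene shown was called over all genes tested.

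**Figure D5:**
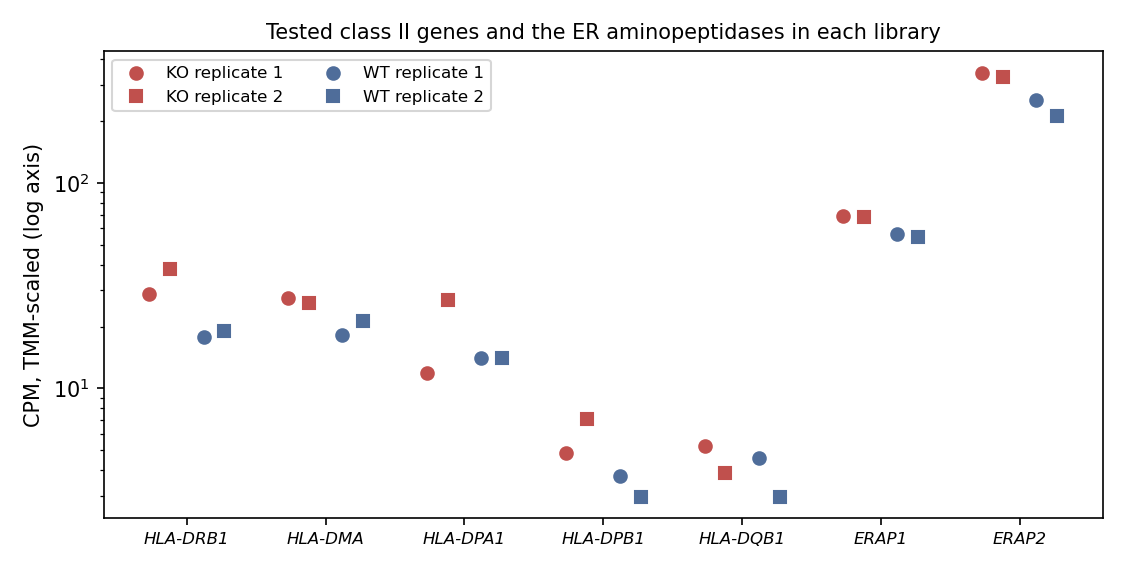
Level of the 5 tested class II genes and of ERAP1 and ERAP2 in each library, in CPM on a log axis, KO in red left of WT in blue. Both KO libraries lie above both WT libraries for HLA-DRB1, HLA-DMA, HLA-DPB1, ERAP1 and ERAP2, and the groups overlap for HLA-DPA1 and HLA-DQB1. Over all genes tested, both KO libraries were above both WT libraries for 21.2% and below them for 18%. No gene shown was called.

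The genes whose profile over the 4 libraries was most like that of B2M, by Euclidean distance of centred log2 CPM among 3082 other tested genes averaging 50 CPM or more, were SCOC (distance 0.0196), ANXA5 (0.0289), ALG11 (0.0368), PMAIP1 (0.0403) and NUDT9 (0.0489). SCOC had 392 ± 26.6 CPM in KO and 313 ± 6.21 CPM in WT libraries (SD, n = 2 each), and ANXA5 83.4 ± 5.04 CPM in KO and 66.7 ± 0.245 CPM in WT libraries. With 4 libraries many genes can share such a profile.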

How the data were processed

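RNA was sequenced from 2 KO and 2 WT libraries prepared with a low-input NEB kit (total RNA input 100 ng, per the labels' protocols). The submitters' processing notes name hg38 as the build and, among the tools, STAR, HTSeq and DESeq2. The sources used here give no tool version, annotation release or strand setting. Deposited for each library are unnormalized read counts by gene, and each table was assigned by its sheet name, which matched 1 sample title. Per the file headers, the authors' comparison table holds a base mean (a normalized signal), log2 fold changes (KO over WT), their standard errors, Wald scores, and each p-value before and after adjustment.

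Identifiers were matched without version to gene symbols (61463 of 78686 features). GENCODE 29 (GRCh38) gave positions, exon lengths and GC content, the last for 8479 of 8483 tested coding genes. Genes passing filterByExpr (minimum count 10) were scaled by TMM, and a robust quasi-likelihood model with genotype as its only term was fitted in edgeR 4.0.16 (R 4.3.3), with Benjamini-Hochberg adjustment over 10670 genes and a threshold of 0.05. CPM use TMM-scaled library sizes (factors 0.980 to 1.02) unless library totals are named. The common biological coefficient of variation was 0.143. Chi-square per degree of freedom was 5.38 between the KO and 5.01 between the WT libraries, so neither pair differed by counting error alone. This does not show that the replicates came from separate cultures. The fit was tested on simulated counts for 10670 genes of KO over WT. Of simulated 1.5-fold changes 14.3% were called, of 2-fold 50.7% and of 4-fold 84.5%, with 6 false among 111 calls. The changed genes were drawn at random from all genes tested. These shares are therefore averages over genes of all levels and not rates for any member.

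The members, lists and tests were chosen with earlier results of these data known. Named are the 9 members, HEMK1, PSMB8, PSMB9, IRF1, CALR, CANX and PDIA3, per list the smallest p and the 2 highest mean CPM where none was called, and the 5 profiles nearest to B2M; 3 genes so chosen are not reported here. Other genes were named after their values were seen. Alternatives were upper-quartile scaling, DESeq2 1.42.0, no filter, a replicate block, each library left out and other heavy chain sums.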

Additional observations from a re-analysis of the deposited data

How the results depend on the processing

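The count of called class I genes was also 0 under upper-quartile scaling, DESeq2, no filter, the replicate block and without each library in turn; this is a count in a design that called 14.3% of simulated 1.5-fold changes. B2M kept a log2 fold change of 0.21 to 0.40 and ERAP1 of 0.25 to 0.33 over these settings, with edgeR or DESeq2 adjusted p of 0.577 or more for B2M and 0.681 or more for ERAP1. HLA-B lay between 0.01 and 0.42 and HLA-C between 0.39 and 0.57; HLA-E lay between −0.27 and 0.78 and turned sign when KO replicate 1 (−0.09) or WT replicate 2 (−0.27) was left out. The difference of the log2 ratio of B2M to heavy chains, −0.00736, became 0.0738 with HLA-B alone and 0.0586 with HLA-E alone, and lay between −0.0517 and 0.0369 with 1 library left out, so its sign is not determined; the cause was not tested. The number of genes called among all tested, 35, was 156 with no filter (more genes tested) and 140 with the replicate block, and between 7 and 189 with 1 library left out: 98 without KO replicate 1, 189 without KO replicate 2, 7 without WT replicate 1 and 14 without WT replicate 2. Each of these 4 fits leaves 1 library in a group, which is assumed to vary like the 2 of the other genotype, so the counts measure that assumption too. The deviations of same-numbered libraries had a correlation of −0.0351 over all genes tested, which cannot exclude a batch that moves some genes. For the B2M ratio the replicate block averages the KO minus WT differences of same-numbered libraries. With 2 libraries per group this equals the main difference, −0.00736, by arithmetic, so it is no check of it. Depth limits HLA-B, HLA-C, HLA-E, TAP1 and NLRC5, with 38 or fewer counts per group; TAP2 and TAPBP had too few counts to compare, and the cause was not tested.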

Other observations

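The class I heavy chains, TAP1, TAP2 and TAPBP lie in the MHC region of chromosome 6, where other genes common to most cells were also listed at 0. Of 183 coding genes between positions 28000000 and 34000000 (GRCh38), olfactory receptor genes left out, 41.5% had no count in any library, against 25.2% of 19003 coding genes elsewhere. At a transcript GC content of 55% or more the shares were 45.5% in the region and 36.8% elsewhere, and under 55% they were 37.9% and 19.5%. DDX39B, an RNA helicase of mRNA export, and CSNK2B, the regulatory subunit of casein kinase 2, had no count in any library. TUBB, a β-tubulin in the same region, had 929 and 2447 counts in KO and 1205 and 1547 counts in WT libraries, and the ribosomal protein gene RPS18 had 4049 and 8480 counts in KO and 5407 and 6366 in WT libraries. These 4 genes were picked with their values in view, and no cause was tested.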
